A study of Mus musculus with 4 samples.

Results

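CD8 T cells with low surface CD44 and low CD62L (P4) were compared with CD8 T cells of central memory phenotype, which carry high CD44 and high CD62L (P2), across all genes of a whole-genome expression array. A gene was a member of the comparison if its probe was well above background on the P4 array, the P2 array or both, which held for 13125 of 22911 genes with a RefSeq name, and 12119 of these were above background on both arrays. Both subsets came from the spleens and lymph nodes of PD-1-/- mice on a C57BL/6 background, which were 1 to 3 months old and received no treatment, so that every group lacked the coinhibitory receptor PD-1 and no PD-1-sufficient group is compared here. The series also holds P1, the CD44low CD62Lhigh phenotype that naive cells have, and P3, the CD44high CD62Llow phenotype that effector and effector memory cells have, from mice of the same genotype, age and organs. Levels in P1 and P3 are given beside each gene as a frame. Marker signal of other cell types on the P3 array is given with the P3 minus P1 difference. Each subset was hybridised to 1 array, the labels do not give the number of mice per sort, and no difference reported here has a replicate check. The study's title names the CD44low CD62Llow subset as the one to be characterised.

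CD44 is a hyaluronan receptor whose surface density rises when a T cell meets antigen or homeostatic cytokines, and CD62L is the selectin that lets a lymphocyte enter lymph nodes. Central memory cells keep CD62L and recirculate through lymphoid organs. In unimmunised mice this gate also holds virtual memory cells, which acquire memory features through homeostatic cytokines without foreign antigen and are known for Ly49 receptors, high IL-2 receptor beta and fast interferon-gamma secretion on IL-12 and IL-18.

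Levels are log2 of the processed spot intensity minus the 75th percentile of the same array, so that 0 is the 75th percentile, and a difference of 1 is 2-fold. The 4 arrays lay on 1 slide, 1 position per subset, and the position cannot be told apart from the subset. Between 27827 and 30811 of 56605 probes were well above background per array, 122 to 152 outlier spots per array were dropped, and 0 spots were saturated. Repeated spots of one probe on the P4 and P2 arrays had a pooled SD of 0.081, which alone gives a difference a 95% half-width of 0.22, or 0.58 for probes below a level of -3. The scanner software's own error model gave a median SE of 0.204 per difference. Both errors leave out the variation between mice, sorts and labelling reactions. Where 1 of the 2 values was not well above background, the difference is a bound, counted from the lowest signal well above background on that array, or from the dim value itself where that was higher, and is written as "at least".

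Transcripts of Cd44, which the sort used, and of the lineage were read first. Cd44 stood at -1.20 in P4 and 2.30 in P2, against -1.77 in P1 and 2.15 in P3, and its P4 minus P2 difference was -3.50, with 3 probes between -3.50 and -2.38. The low value was thus shared by both CD44low subsets. Cd8a, at 4.97 in P4 and 4.80 in P2, against 5.05 in P1 and 5.10 in P3, and Cd8b1, at 7.52 in P4 and 7.56 in P2, against 7.94 in P1 and 7.44 in P3, differed by 0.17 and -0.04. The T cell receptor complex genes Cd3d, Cd3e, Cd3g and Cd247 lay between -0.15 and 0.42. The labelled CD8 T cell identity was thus borne out by its defining genes on both arrays. Pdcd1, the disrupted gene, gave levels of 1.74 in P4 and -3.02 in P2, against -3.27 in P1 and 1.79 in P3. No wild-type group is used here and the position of the probe against the deleted part is not known here, so this signal checks neither genotype nor labels.

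By size, 636 of the 13125 genes (4.85%) were above P2 by 2-fold or more in P4, and 451 (3.44%) were below it by as much. These shares of all genes are the reference for the list counts that follow. The median difference was 0.00468. Among the higher genes 429 were above background on both arrays and 207 gave bounds, and among the lower genes 305 and 146. Large differences were few, with 192 genes at least 4-fold and 28 at least 16-fold higher, and 136 and 12 lower. Genes of low to middling signal made up most calls: of 2149 genes whose higher level lay from -3 to -1, 12.0% were higher and 8.05% lower, while of 2944 genes above 3 the shares were 1.19% and 1.83%. Some spots lay in a locally bright area, where neighbouring spots were also raised on 1 array alone. Such spots carried 85 of the 451 lower genes (18.8%) and 46 of the 636 higher genes (7.23%), against 3.92% of all measured genes, and they carried 64 of the 146 bounds among the lower genes. Outside such areas 590 genes were higher and 366 lower.

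**Figure D1:**
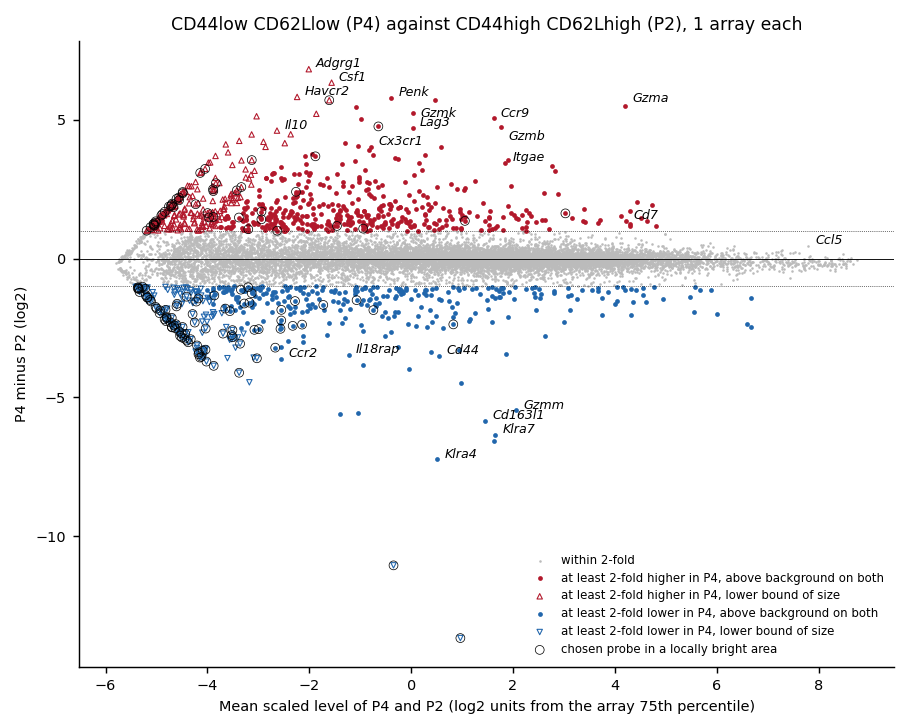
P4 minus P2 difference (log2) of 13125 measured genes against the mean of their levels on the P4 and P2 arrays (log2 units from the 75th percentile), 1 array each, with red and blue for 2-fold or more higher and lower in P4, triangles for bounds and black rings for locally bright areas. The 636 higher genes reach 6.82 (Adgrg1, a bound), and the 2 lowest triangles, Tgm6 and Cd40, are ringed.

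Granzymes divided the subsets in both directions. Granzymes are the serine proteases that cytotoxic cells release to kill targets. Gzma, which encodes granzyme A, stood at 6.95 in P4 and 1.46 in P2, against -0.70 in P1 and 6.83 in P3. The P4 minus P2 difference was 5.49, or 45.1-fold, and P4 and P3 formed the high pair. Gzmb, the granzyme most tied to caspase-driven death, stood at 4.13 in P4 and -0.60 in P2, against -2.54 in P1 and 5.14 in P3, and P4 was 26.6-fold above P2. Gzmk, a granzyme of early effector and chronically stimulated cells, stood at 2.66 in P4 and -2.59 in P2, against -6.75 in P1 and 3.53 in P3 (P1 not well above background), a difference of 5.24. Gzmm ran the other way. It encodes a granzyme shared with NK and other innate-like lymphocytes, and its levels were -0.67 in P4 and 4.80 in P2, against -0.88 in P1 and 2.93 in P3. P4 lay 44.2-fold below P2, with both measured probes between -5.46 and -5.32, and the P4 level was close to that of P1. Fasl, the ligand of the Fas death receptor, was higher in P4 by 1.74. The pore-forming perforin gene Prf1 differed by 0.09, at 2.34 in P4 and 2.25 in P2, against 1.57 in P1 and 2.90 in P3. Of 16 granule genes measured, 4 were 2-fold or more higher in P4 (25%, against 4.85% of all genes) and 1 lower, with a median of 0.44. NK cells share these genes. Beside them, the NK cell marker list had 10 of 14 genes measured, with 1 higher, 2 lower and a median of -0.03. Its members Ncr1, Itga2, Klri2 and Sh2d1b1 were not above background on either array. The members Klrb1c (-1.67 in P4 and -0.94 in P2), Klre1 and Klra8 were above background on both. The summed level of the list, on the linear scale relative to the 75th percentile, was 152 in P4 and 33.8 in P2, a sum that includes Gzma.

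Gzma and Gzmk are neighbours on chromosome 13 and together with the next measured gene, Esm1 (2.40), formed a run of 3 adjacent genes that were all 2-fold or more higher in P4. Their upstream sequences are shown because the pair moved together: 250 bases before the start of each gene (RefSeq, GRCm38.p6, both on the minus strand, written 5′ to 3′ along the gene). Capitals mark matches on either strand to TGANTCA (AP-1), TCACACC (T-box), TGTGGT (RUNX) or CTTTGA (TCF/LEF).
Gzma, chr13:113100982-113101231: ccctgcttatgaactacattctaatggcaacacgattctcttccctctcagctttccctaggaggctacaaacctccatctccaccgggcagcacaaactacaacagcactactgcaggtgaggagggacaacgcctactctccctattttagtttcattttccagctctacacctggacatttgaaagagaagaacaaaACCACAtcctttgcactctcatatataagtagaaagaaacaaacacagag
Gzmk, chr13:113180966-113181215: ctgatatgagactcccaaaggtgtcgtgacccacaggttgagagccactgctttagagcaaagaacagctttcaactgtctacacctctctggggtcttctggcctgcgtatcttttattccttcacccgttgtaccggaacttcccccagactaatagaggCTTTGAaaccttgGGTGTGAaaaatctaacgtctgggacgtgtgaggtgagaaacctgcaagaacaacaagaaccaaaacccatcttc
The Gzma window held 1 match, to the RUNX letters, and the Gzmk window 2, to the T-box and TCF/LEF letters, with no overlap between them. Of 27025 genes with a promoter in the table, 15.9% held the RUNX letters in the same window, 3.84% the T-box letters, 15.8% the TCF/LEF letters and 7.82% the AP-1 letters. A promoter was listed for 489 of the higher and 350 of the lower genes. The RUNX letters occurred in 15.7% of the former and 15.4% of the latter, against 13.4% of 10475 measured genes with a promoter. For the AP-1 letters the shares were 7.98% and 8.57%, against 5.57%. The T-box letters occurred in 4.29% and 6%, against 3.7%, and the TCF/LEF letters in 13.9% and 15.7%, against 13.2%. These are counts of letters in a window.

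Inflammatory chemokines and secreted factors were on balance higher in P4. Csf1, the growth factor of macrophages, stood at 1.79 in P4 and -4.91 in P2, against -4.33 in P1 and 1.62 in P3 (P2 not well above background), so that P4 was at least 80.9-fold above P2, with its 3 measured probes between 3.69 and 6.34. Il10, an immunosuppressive cytokine made by T cells under strong or repeated stimulation, stood at 0.06 in P4 and -5.33 in P2, against -6.81 in P1 and 0.04 in P3 (P1 and P2 not well above background), at least 24.4-fold higher in P4. Penk, the precursor of the enkephalin opioid peptides, had the largest difference measured on both arrays among the higher genes, 5.78, with levels of 2.49 in P4 and -3.29 in P2, against -5.21 in P1 and 3.66 in P3 (P1 not well above background). For all 3 genes P4 and P3 were high and the CD62Lhigh subsets low. Ccl3, an inflammatory chemokine of activated cytotoxic cells, stood at 4.40 in P4 and 1.23 in P2, against -3.27 in P1 and 4.64 in P3, and Ccl4, a related chemokine, at 5.70 in P4 and 3.77 in P2, against -1.09 in P1 and 5.99 in P3. Their differences were 3.17 and 1.93, and with Ccl6 (at least 2.5-fold) they formed a run of 3 adjacent measured genes on chromosome 11. Other members that set P2 apart from naive phenotype cells differed little between P4 and P2. Ccl5, at 8.03 in P4 and 7.57 in P2, against 2.41 in P1 and 7.52 in P3, differed by 0.46, Xcl1, at 3.29 in P4 and 2.80 in P2, against -2.40 in P1 and 3.56 in P3, by 0.49, and Ifng, at 5.15 in P4 and 4.71 in P2, against 0.71 in P1 and 6.46 in P3, by 0.44. Of 24 chemokine and cytokine genes 9 were 2-fold or more higher in P4 (37.5%, against 4.85% of all genes), with a median of 0.46. The 1 lower gene (4.17%, against 3.44%) was Csf2 (at least 2.92-fold).

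**Figure D2:**
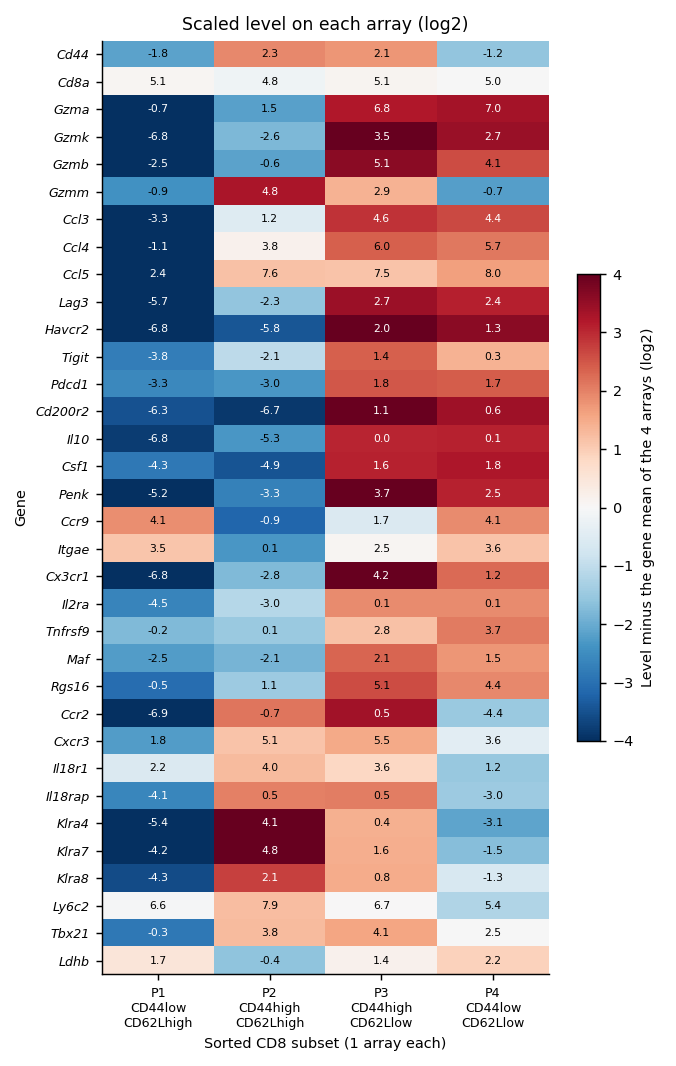
Scaled level (log2, printed in each cell) of 34 named genes (rows) in the 4 sorted subsets (columns, 1 array each), coloured by its distance from the mean of that gene over the 4 arrays. Gzma, Gzmb, Lag3, Havcr2 and Penk are high in P3 and P4, Klra4, Klra7 and Gzmm peak in P2, and Ccr9 and Itgae are lowest in P2.

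Homing and adhesion genes moved both ways. Ccr9, the receptor for the gut and thymus chemokine CCL25, stood at 4.14 in P4 and -0.91 in P2, against 4.11 in P1 and 1.68 in P3. P4 was 33.1-fold above P2 and lay next to P1, so that P2 was the low array. Cx3cr1, the fractalkine receptor of effector cells, stood at 1.22 in P4 and -2.81 in P2, against -6.76 in P1 and 4.16 in P3 (P1 not well above background), a difference of 4.03, with a second probe at 2.48. Here P3 was highest and P4 intermediate. S1pr5, Ptger4 and Cxcr6 were higher in P4 by 1.56, 1.46 and 1.37, and Gpr34 gave a bound from a spot in a bright area of the P4 array. Receptors of inflamed tissue and of the follicle were lower. Ccr2, the receptor for monocyte chemoattractants, stood at -4.36 in P4 and -0.75 in P2, against -6.87 in P1 and 0.49 in P3 (P1 not well above background), 12.2-fold lower in P4. Cxcr3, the receptor for interferon-induced chemokines, stood at 3.57 in P4 and 5.14 in P2, against 1.76 in P1 and 5.52 in P3 and Cxcr5, the receptor for the follicle chemokine CXCL13, at 0.07 in P4 and 2.25 in P2, against -1.43 in P1 and 2.06 in P3. Their differences were -1.57 and -2.18. The lymph node homing receptor gene Ccr7 and the egress receptor gene S1pr1 differed by -0.11 and -0.25. Of 20 chemokine and egress receptors 6 were higher (30%, against 4.85% of all genes) and 5 lower (25%, against 3.44%), with a median of -0.30.

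Among integrins and adhesion genes 4 of 25 were higher and 4 lower (16% each, against 4.85% and 3.44% of all genes). Adgrg1, an adhesion G protein-coupled receptor of cytotoxic lymphocytes, stood at 2.27 in P4 and -6.29 in P2, against -6.91 in P1 and 2.20 in P3 (P1 and P2 not well above background), at least 113-fold higher in P4, the largest bound outside bright areas. Itgae, the CD103 chain that binds E-cadherin on epithelium, stood at 3.57 in P4 and 0.13 in P2, against 3.54 in P1 and 2.53 in P3, a difference of 3.44, with P1 and P4 alike. Itga4 was higher by 1.54, while its partner chain Itgb1 was lower, with a log2 difference of -1.45, at 2.53 in P4 and 3.98 in P2, against 1.85 in P1 and 5.09 in P3. Jaml was lower, with a log2 difference of -1.65. The tissue residency list shares Itgae, Cxcr6 and Rgs1 with other lists. It had 7 of 14 members higher (50%, against 4.85% of all genes), 0 lower and a median of 0.79. The higher members included Litaf at 2.54 (other probe 0.97) and the ATP-gated channel gene P2rx7 at 1.87.

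Dendritic cells also carry Ccr9 or Itgae. Their marker lists stood beside these values as follows. For plasmacytoid dendritic cells 10 of 11 genes were measured, with 3 higher (Ccr9, Ly6d and Tcf4) and 1 lower. The summed level of this list was 120 in P4 and 106 in P2, a sum that includes Ccr9 itself and Siglech. Siglech, a listed marker, differed by -0.15, at 5.66 in P4 and 5.81 in P2, against 5.61 in P1 and 4.37 in P3. In P4, P2 and P1 this was above the level of Cd8a (4.97, 4.80 and 5.05). The Siglech signal is thus not read here as a measure of these cells, and its source was not tested. The type 1 dendritic cell list had 7 of 11 measured, 1 higher and 1 lower, with sums of 23.9 and 10.9 that include Itgae, and the defining genes Xcr1 and Clec9a were not above background on either array. Their part in the homing gene differences was not tested.

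Genes of coinhibitory receptors and their ligands were more often higher than lower in P4. Havcr2, which encodes TIM-3, stood at 1.28 in P4 and -5.75 in P2, against -6.79 in P1 and 1.97 in P3 (P1 and P2 not well above background), at least 56.6-fold higher in P4. Lag3, a class II-binding inhibitory receptor, stood at 2.38 in P4 and -2.32 in P2, against -5.69 in P1 and 2.70 in P3 (P1 not well above background), a difference of 4.70, with the other probe at 4.98. Tigit, a receptor for CD155, stood at 0.35 in P4 and -2.11 in P2, against -3.81 in P1 and 1.35 in P3, a difference of 2.46. For these 3 genes P3 was higher than P4, and P1 and P2 were low. The Pdcd1 difference was 4.76, but its spot lay in a locally bright area of both arrays, and P3 at 1.79 was close to P4 at 1.74. Entpd1, the CD39 ectonucleotidase, was higher by 3.52, and Ctla4, the CD28 antagonist, by 1.77. Cd200 was higher by 2.06, with its other probe at 0.94. Its receptor family lay in another run of 3 adjacent genes on chromosome 16, with Cd200r1 at least 18.9-fold, Cd200r2 at least 35-fold and Cd200r4 higher by 1.58. Lair1, a collagen receptor, was the exception at -2.08, with levels of -1.60 in P4 and 0.48 in P2, against -0.55 in P1 and 0.82 in P3. Of 21 coinhibitory genes measured, 11 were at least 2-fold higher (52.4%, against 4.85% of all genes) and 1 lower (4.76%, against 3.44%), with a median of 1.16. The 11 are not all receptor genes. They include the disrupted gene Pdcd1, the enzyme gene Entpd1 and the ligand genes Cd200, Lgals3 and Pdcd1lg2. Costimulatory genes gave 3 higher (15%) and 1 lower (5%) of 20, against the same shares of all genes. Tnfrsf9, which encodes 4-1BB, stood at 3.67 in P4 and 0.13 in P2, against -0.15 in P1 and 2.76 in P3, a difference of 3.54, and Slamf1 was higher by 2.73, with its other probe at 1.25. The third, Tnfrsf21, rested on a bright-area spot and was at least 3.12-fold higher here and -0.35 (log2) in the authors' processed values. The lower one, Cd40, came from a P2 spot in a bright area and the P4 value was not above background.

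Genes set by antigen receptor signals were higher in P4 in part. Maf, a transcription factor that drives Il10, stood at 1.51 in P4 and -2.13 in P2, against -2.47 in P1 and 2.08 in P3, a difference of 3.64. Bhlhe40, Egr3, Tox and Ikzf2 were higher by 1.88, 1.77, 1.56 and 1.41. Egr3, an immediate product of receptor signalling, was highest in P4 of the 4 arrays, at 0.99 in P4 and -0.78 in P2, against 0.19 in P1 and -0.49 in P3. Nab2 was higher by 1.63 from a spot in a bright area. Nfatc2 was the 1 lower member of 21 at -1.01, and it was under 2-fold in 3 alternative settings. The median of these 21 genes was 0.71. The 14 members within 2-fold included Nr4a1 (0.22), Nr4a2 (0.76), Nr4a3 (0.64), Egr1 (0.77), Egr2 (0.78), Irf4 (0.87) and Myc (-0.18). In contrast, 0 of 28 genes of the T cell receptor signalling machinery were 2-fold apart in either direction (median -0.02, range -0.97 to 0.45). AP-1 genes gave 0 higher and 2 lower of 8, Atf3 at -1.80 and Fosl2 at -1.02. Most feedback regulators were within 2-fold. Of 9 RGS genes 2 were higher and 0 lower (median -0.08), and of 12 DUSP and SPRY genes 2 were higher and 0 lower (median -0.05). Rgs16, a brake on chemokine receptor signalling, stood at 4.43 in P4 and 1.08 in P2, against -0.54 in P1 and 5.12 in P3, a difference of 3.35, and Rgs1, Spry1 and Dusp14 were higher by 1.30, 1.68 and 1.86, with the other Dusp14 probe at 0.56. Zc3h12a, which encodes Regnase-1, an RNase cleaved after receptor signalling that restrains T cell activation, stood at -3.02 in P4 and -0.28 in P2, against -0.60 in P1 and -1.34 in P3. It was lowest in P4 of the 4 arrays and differed by -2.74, the 1 lower and 0 higher among 8 mRNA decay factors.

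Transcription factors of effector and memory fate split. Id2, which supports effector differentiation, was higher by 1.73 at 5.15 in P4 and 3.42 in P2, against 4.55 in P1 and 5.34 in P3, and Prdm1, which encodes Blimp-1, by 1.44 at 1.53 in P4 and 0.09 in P2, against -1.13 in P1 and 2.49 in P3. Rora and Ahr were higher by 1.54 and 1.36. Tbx21, which encodes T-bet, was lower, with a log2 difference of -1.30 at 2.49 in P4 and 3.79 in P2, against -0.34 in P1 and 4.09 in P3, so that P4 lay above P1 but below both CD44high subsets. Hopx was lower with a log2 difference of -1.36, Runx2 with -1.21 and Nfil3 with -1.08. Eomes, the T-box factor that virtual memory cells need, differed by -0.33 at 3.33 in P4 and 3.66 in P2, against 1.33 in P1 and 3.81 in P3. The list had 5 higher (19.2%, against 4.85% of all genes) and 4 lower (15.4%, against 3.44%) of 26, with a median of 0.34.

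**Figure D3:**
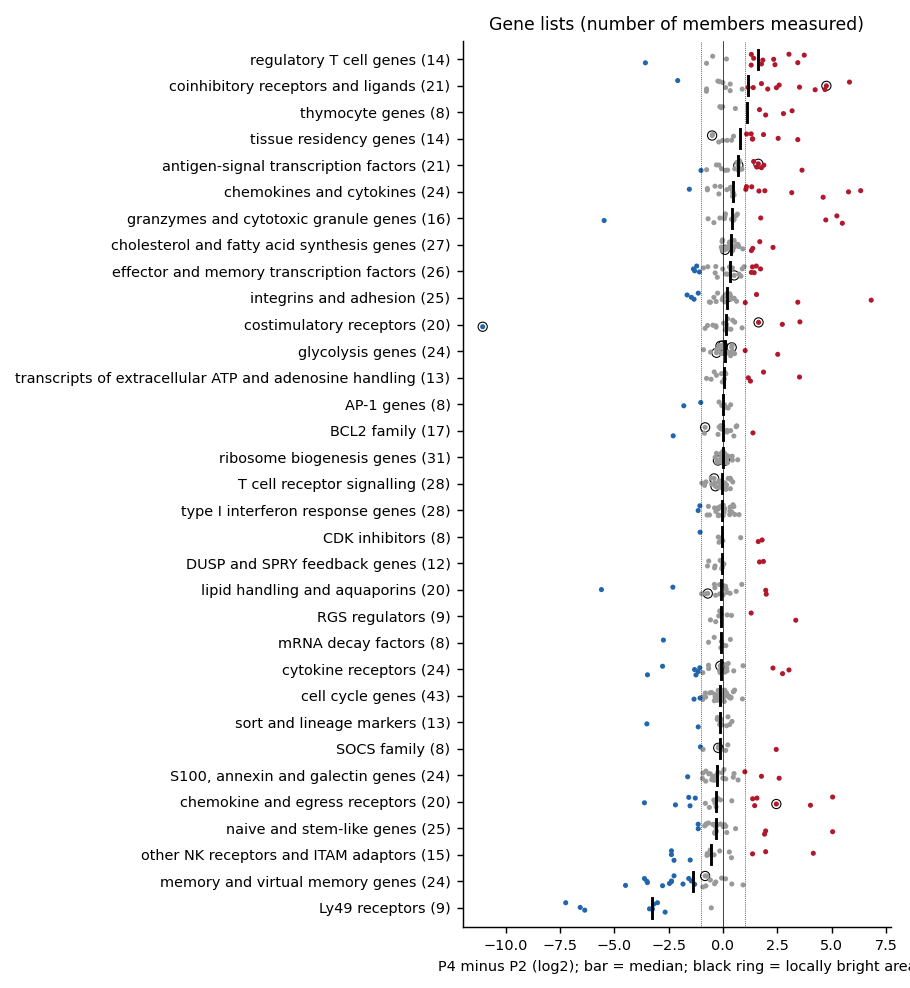
P4 minus P2 difference (log2, horizontal axis) of the measured members of 33 gene lists (rows, with the number measured), 1 array a side, with red and blue for 2-fold or more higher and lower in P4, black bars for medians and black rings for locally bright areas. Ly49 and memory genes lie to the left with medians of -3.24 and -1.38, and regulatory T cell and coinhibitory genes to the right with 1.59 and 1.16.

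Memory and virtual memory genes were lower in P4. Of 24 measured, 13 were at least 2-fold lower (54.2%, against 3.44% of all genes) and 0 higher, with a median of -1.38. This list includes Cd44, which the sort used. Samd3 stood at -1.26 in P4 and 3.22 in P2, against -2.35 in P1 and 2.01 in P3, 22.3-fold lower in P4, with 4 probes between -4.51 and -2.61. The IL-18 receptor chains, which allow memory cells to respond without antigen, were both lower. Il18rap stood at -2.96 in P4 and 0.51 in P2, against -4.11 in P1 and 0.53 in P3 and Il18r1 at 1.24 in P4 and 4.02 in P2, against 2.19 in P1 and 3.56 in P3, differences of -3.47 and -2.78. Ly6c1 and Ly6c2, near-identical genes whose probes may share targets, differed by -2.37 and -2.46, with Ly6c2 at 5.44 in P4 and 7.89 in P2, against 6.62 in P1 and 6.66 in P3. For Ly6c2 P4 was the lowest of the 4 arrays. Plek was lower, with a log2 difference of -1.84 at 2.20 in P4 and 4.03 in P2, against -3.13 in P1 and 4.45 in P3, and there P4 lay between P1 and the CD44high subsets. Il2rb, the receptor chain for IL-15, differed by -0.92 at 5.62 in P4 and 6.54 in P2, against 4.51 in P1 and 5.91 in P3, which is under 2-fold. Over the cytokine receptors as a whole, 3 of 24 were higher (12.5%, against 4.85% of all genes) and 6 lower (25%, against 3.44%). Il2ra, the high-affinity IL-2 receptor chain, stood at 0.06 in P4 and -2.98 in P2, against -4.48 in P1 and 0.06 in P3 (P1 not well above background), a difference of 3.04, and Cish, a feedback target of IL-2 signalling, was higher by 2.45. Ifngr2 and Tgfbr3 were higher by 2.74 and 2.30, with Ifngr2 at 1.25 in P4 and -1.50 in P2, against 1.76 in P1 and -0.79 in P3. Ifngr1, the partner chain, was lower, with a log2 difference of -1.30, and Il4ra and Il7r with -1.24 and -1.14. The Il7r difference was under 2-fold with quantile normalization and in the authors' processed values.

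Ccr2 and Itgax are also markers of myeloid cells. The macrophage and monocyte list had 9 of 16 genes measured, 0 higher and 4 lower (Ccr2, Aif1, Mpeg1 and C1qb, 44.4% against 3.44% of all genes), with summed levels of 41.7 in P4 and 44.7 in P2. Adgre1, Lyz2 and Fcgr1 were not above background on either array. The class II and type 2 dendritic cell list had 10 of 13 measured, with 0 higher, 1 lower (Itgax at -1.33) and sums of 133 and 127. Their part in the memory gene differences was not tested.

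Ly49 receptors, lectin-like receptors for class I molecules on NK cells and virtual memory T cells, were the group with the largest differences. Of 9 measured of 18 listed, 8 were at least 2-fold lower in P4 (88.9%, against 3.44% of all genes) and 0 higher, with a median of -3.24. Klra4 stood at -3.11 in P4 and 4.12 in P2, against -5.40 in P1 and 0.44 in P3 (P1 not well above background), 150-fold lower in P4. Klra7 stood at -1.53 in P4 and 4.83 in P2, against -4.24 in P1 and 1.63 in P3, a difference of -6.36, and Klra16 at -1.65 in P4 and 4.91 in P2, against -4.14 in P1 and 1.27 in P3, a difference of -6.57. For all 3 genes P2 was highest, P3 next and P1 lowest, and P4 lay between P1 and P3. Klra8, Klra9, Klra6 and Klra5 were lower, with log2 differences of -3.38, -3.19, -3.01 and -2.66 (other Klra5 probe -0.85), and Klra10 was at least 9.47-fold lower. Klra1 was the exception, at 0.78 in P4 and 1.31 in P2, against 0.73 in P1 and -0.14 in P3 and a difference of -0.53. The family is made of closely related genes, so the signal of 1 probe may come from several of them and the members are not independent measurements. The summed level of the measured Ly49 genes was 3.57 in P4 and 88.1 in P2, against 1.92 in P1 and 11.5 in P3. In sorted bulk cells, fewer cells with a transcript and less of it per cell cannot be told apart, here and throughout.

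The lower signal extended along the NK receptor region of chromosome 6. In the order of measured genes on the chromosome, 10 adjacent genes were all at least 2-fold lower in P4, from Klrk1 over Klrc3, Klrc1, Klra5, Klra6, Klra4, Klra8, Klra9 and Klra7 to Klra10. No other run was longer than 3 genes. Klrk1, which encodes the activating receptor NKG2D, stood at -1.25 in P4 and 1.11 in P2, against -6.23 in P1 and 2.92 in P3 (P1 not well above background), a difference of -2.37. Klrc1, the inhibitory receptor NKG2A, differed by -2.25 and Klrc3 by -2.37. Klrd1, which encodes CD94, the partner of NKG2A, lies next to the run and differed by -0.73, with levels of 4.62 in P4 and 5.35 in P2, against 5.03 in P1 and 5.12 in P3. Beyond Klrd1, Klre1 was lower, with a log2 difference of -1.51. Cd69 and Clec2d, farther along, differed by -0.47 and -0.09. NK receptors did not share 1 direction. Klrg1, a receptor of terminal effector cells, stood at -0.39 in P4 and -4.57 in P2, against -6.75 in P1 and 2.31 in P3 (P1 and P2 not well above background), at least 17.9-fold higher in P4, and Klrb1a and Cd7 were higher by 1.97 and 1.36. The adaptor genes Fcer1g and Tyrobp differed by 0.39 and -0.15. Of 15 other NK receptor and adaptor genes, 3 were higher (20%, against 4.85% of all genes) and 4 lower (26.7%, against 3.44%).

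**Figure D4:**
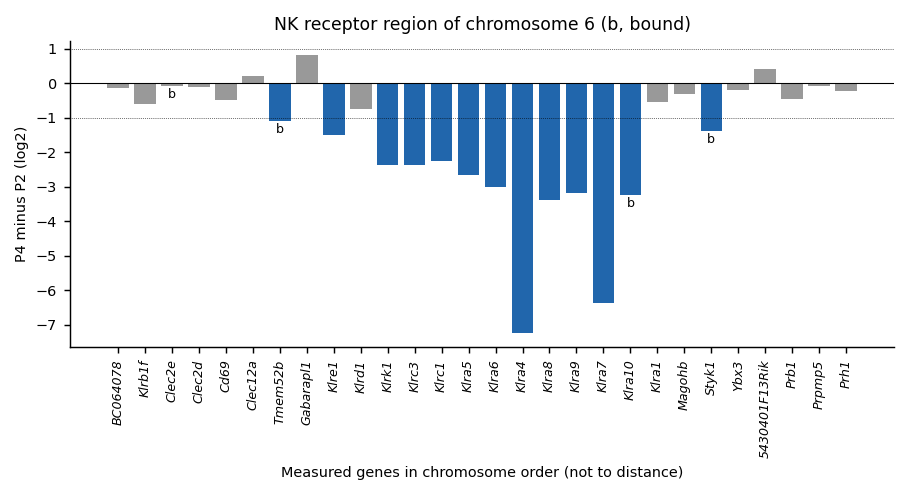
P4 minus P2 difference (log2, bars from 0, 1 array a side) of 28 measured genes in their order along chromosome 6, not to distance, with b for bounds and blue for at least 2-fold lower in P4. The 10 adjacent genes from Klrk1 to Klra10 are all blue, with the lowest bars at Klra4 (-7.23) and Klra7 (-6.36).

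Upstream sequences of 3 of these genes are shown because members of the run were lower in P4 together. Each is 250 bases before a RefSeq start (GRCm38.p6, minus strand, 5′ to 3′ along the gene), and capitals mark bases not matched to the Klra4 sequence in a global alignment.
Klra4, chr6:130067272-130067521: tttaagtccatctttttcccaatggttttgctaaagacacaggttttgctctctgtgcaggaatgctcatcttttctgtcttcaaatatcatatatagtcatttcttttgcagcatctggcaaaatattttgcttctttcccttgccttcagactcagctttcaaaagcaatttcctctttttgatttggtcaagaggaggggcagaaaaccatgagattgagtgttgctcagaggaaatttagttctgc
Klra8, chr6:130129899-130130148: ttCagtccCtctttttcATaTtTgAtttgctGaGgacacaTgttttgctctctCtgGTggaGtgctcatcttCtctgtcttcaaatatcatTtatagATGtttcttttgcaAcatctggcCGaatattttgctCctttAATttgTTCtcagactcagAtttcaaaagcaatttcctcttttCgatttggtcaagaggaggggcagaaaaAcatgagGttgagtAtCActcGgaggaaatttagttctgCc
Klra7, chr6:130233323-130233572: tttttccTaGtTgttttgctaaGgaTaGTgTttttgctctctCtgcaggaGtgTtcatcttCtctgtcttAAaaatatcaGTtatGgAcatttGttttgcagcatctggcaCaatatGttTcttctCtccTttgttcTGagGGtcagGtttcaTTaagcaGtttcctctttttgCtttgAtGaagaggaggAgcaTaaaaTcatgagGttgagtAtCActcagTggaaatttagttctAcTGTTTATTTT
At the starts shown, Klra8 matched Klra4 in 212 of 250 bases (84.8%) and Klra7 in 196 (78.4%). Each of these genes has another listed start, which matched Klra4 in 163 bases (65.2%) for Klra8 and in 142 (56.8%) for Klra7. Klra5 and Klra6 matched it in 185 and 174 bases, and Klra9 and Klra10 in 153 and 145. Klra1, the member that was within 2-fold, matched it in 139 bases (55.6%), close to the value of Klra10 (58%), which was lower in P4. Among the 10 genes of the run, 3 held the RUNX letters in this window, 2 the TCF/LEF letters, 0 the T-box letters and 0 the AP-1 letters, against the shares of all promoters given above.

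Cd163l1 and its family member 5830411N06Rik, scavenger receptor genes known from gamma delta T cells, were lower in P4. Cd163l1 stood at -1.47 in P4 and 4.37 in P2, against -2.37 in P1 and 0.92 in P3, 57.3-fold lower in P4, and 5830411N06Rik at -2.02 in P4 and 1.95 in P2, against -3.02 in P1 and -1.51 in P3, a difference of -3.97. Both peaked in P2. The marker list for gamma delta, NKT and other innate-like T cells, which holds them, had 5 of 12 genes measured, with 1 higher (Maf) and 2 lower (these genes), and summed levels of 3.77 in P4 and 25.1 in P2. Of its defining members Il17a and Blk were not above background on either array. Zbtb16 was higher in P4 by at least 0.39 (P2 not well above background), and Sox13 differed by -0.05. The part of such cells was not tested. Aqp9, a channel for glycerol and water, was lower, with a log2 difference of -5.59 at 1 probe and -0.12 at the other, and Dlg5 by -5.58 and -0.98. Drc1, Prss12 and Ebi3 were lower too, with Drc1 at 0.15 in P4 and 3.58 in P2, against 0.72 in P1 and -0.36 in P3 and Prss12 at -0.70 in P4 and 2.59 in P2, against 0.39 in P1 and 0.73 in P3, and Ebi3, a cytokine subunit, at least 11.8-fold lower.

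Naive, thymocyte and regulatory T cell genes included several for which P4 resembled P1 more than P2. Of 25 naive and stem-like genes 3 were higher in P4 (Ccr9, Sox4 and Igfbp4) and 2 lower, Il7r among them, with a median of -0.32. Igfbp4 stood at 0.41 in P4 and -1.51 in P2, against 1.56 in P1 and -4.18 in P3, a difference of 1.92. Tcf7, which encodes TCF-1, and Lef1 differed by -0.37 and 0.08, and both were within 2-fold. Of 8 thymocyte genes 4 were higher (50%, against 4.85% of all genes) and 0 lower. Dntt, the terminal transferase of immature lymphocytes, stood at 0.69 in P4 and -2.50 in P2, against 0.56 in P1 and -0.32 in P3, a difference of 3.18, so that P4 and P1 were alike and P2 low. The regulatory T cell list had 10 of 14 members higher (71.4%, against 4.85% of all genes) and 1 lower (7.14%, against 3.44%), with a median of 1.59. Gpr83 stood at 1.12 in P4 and -2.62 in P2, against 0.89 in P1 and -1.46 in P3, and was high in P1 and P4. Nrp1 stood at 0.28 in P4 and -1.56 in P2, against -2.16 in P1 and 2.78 in P3 at its chosen probe, but its 3 probes differed in sign, from -0.024 to 1.84. Lrrc32 and Ikzf4 were higher in P4 by 2.39 and 2.33. Foxp3, the defining factor, stood at -2.46 in P4 and -3.77 in P2, against -3.47 in P1 and -1.54 in P3, a difference of 1.31, and its 2 measured neighbours on the X chromosome were also higher. Cd4 differed by -0.01 at -0.36 in P4 and -0.35 in P2, against -0.37 in P1 and 0.25 in P3. The CD4 and regulatory T cell marker list had 6 of 7 measured, 3 higher (Il2ra, Ctla4 and Foxp3) and 0 lower, with sums of 11.4 in P4 and 8.96 in P2, and its part in these differences was not tested.

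Metabolic genes past 2-fold were mostly higher in P4, while lipid handling genes were split. Sqle, the squalene epoxidase of cholesterol synthesis, stood at 1.39 in P4 and -0.91 in P2, against 0.90 in P1 and 0.83 in P3, a difference of 2.31, and Cyp51 was higher by 1.31, with its other probe at 0.86. Of 27 cholesterol and fatty acid synthesis genes 4 were higher (14.8%, against 4.85% of all genes) and 0 lower, with a median of 0.39 and a range from -0.07 to 2.31. Ldhb, a lactate dehydrogenase subunit, stood at 2.15 in P4 and -0.37 in P2, against 1.73 in P1 and 1.42 in P3, a difference of 2.52. It was 1 of 2 higher among 24 glycolysis genes (8.33%, against 4.85% of all genes), with Slc16a3 at 1.02. Of 20 lipid handling and aquaporin genes 2 were higher and 2 lower. Fabp5 and Dgat2 were higher by 1.99 and 1.97. Gpat3 was lower, with a log2 difference of -2.30, and so was Aqp9, with -5.59 at 1 probe and -0.12 at the other. Of the 13 genes of extracellular ATP and adenosine handling, 4 were higher (30.8%) and 0 lower, namely Entpd1, P2rx7, Art2b at 1.27 and the NAD-degrading enzyme gene Cd38 at 1.17. Ribosome biogenesis genes gave 0 of 31 in either direction.

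Most genes of division, survival and the interferon response were within 2-fold between the subsets. Of 43 cell cycle genes 0 were higher and 2 lower (4.65%, against 3.44% of all genes), Ccnb2 at -1.33 and Ube2c at -1.05. Their median was -0.12, and Mki67 stood at 0.29 in P2 and 0.30 in P4. CDK inhibitors gave 2 higher (25%, against 4.85% of all genes) and 1 lower (12.5%, against 3.44%) of 8. These were Cdkn2b at 1.80, Cdkn2a at least 3.09-fold higher and Cdkn3 at -1.05. In the BCL2 family Bbc3, which encodes the death-promoting protein PUMA, stood at 1.85 in P4 and 4.14 in P2, against 2.63 in P1 and 1.76 in P3, a difference of -2.29, while Bcl2a1d, a survival gene, was higher by 1.38, the only 2 of 17 past 2-fold. Type I interferon response genes gave 0 higher and 2 lower of 28, Rsad2 at -1.14 and Oas3 at -1.06. The SOCS family had Cish higher and Socs2 lower (-1.03), with 8 measured. Of 24 S100, annexin and galectin genes 3 were higher, with Lgals3 at 2.59, S100a4 at 1.77 and Anxa4 at 1.01 (other probe 0.12), and S100a9 was lower, with a log2 difference of -1.62. S100a4, a calcium-binding protein of effector cells, stood at 4.29 in P4 and 2.51 in P2, against -2.48 in P1 and 7.47 in P3.

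Marker lists of other cell types that a sort of lymphoid tissue could carry over differed in how close they were between the arrays. Those of NK cells, of macrophages and monocytes and of innate-like T cells, given beside the genes they share, held members past 2-fold. B cell genes had 5 of 12 measured, 0 higher and 1 lower (Cd22 at -1.25), and summed levels of 4.91 in P4 and 5.21 in P2, with Cd79a and Pax5 not above background on either array. Plasma cell genes gave 1 higher, Prdm1, of 5. Neutrophil genes gave 0 higher and 1 lower, S100a9, of 5, with sums of 0.446 and 0.643. Innate lymphoid cell genes had 4 of 12 measured, with Kit (at least 22.3-fold) and Rora higher and Il7r lower. Their sums of 56.2 in P4 and 104 in P2 came mostly from 2 members. These were Il7r, at 5.11 in P4 and 6.25 in P2, and Gata3, at 4.05 and 4.75. Erythroid (3 measured), platelet (1) and stromal genes (3) held 0 members past 2-fold. The part of other cell types in the differences of single genes was not tested.

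The remaining named genes with large differences have no list here. Septin4, a septin linked to apoptosis, stood at 1.63 in P4 and -3.81 in P2, against -3.09 in P1 and 1.27 in P3, a difference of 5.45, with its other probe at 4.04. Osgin1, an oxidative stress response gene, stood at 1.52 in P4 and -3.50 in P2, against -1.70 in P1 and 1.04 in P3, a difference of 5.02. Bcat1, the cytosolic branched-chain aminotransferase, stood at 0.98 in P4 and -3.08 in P2, against -3.66 in P1 and -0.02 in P3, Prr5l, a regulator of mTORC2, at 1.12 in P4 and -2.77 in P2, against -4.81 in P1 and 2.85 in P3 (P1 not well above background), and Hacd1, a fatty acid elongation enzyme, at -0.05 in P4 and -3.84 in P2, against -1.38 in P1 and -1.88 in P3. Their differences were 4.06, 3.89 and 3.78, with the other Bcat1 probe at 2.58. For Bcat1 and Hacd1 P4 was the highest of the 4 arrays, and for Hacd1 P3 was low. Aplp1 and Cela1 were higher by 4.17 and 4.01, and Insrr and Kit were at least 37.2-fold and 22.3-fold higher, with a second Insrr probe at 1.16. Pkdcc, at least 52.2-fold, had its spot in a bright area of the P2 array and its other probe at 2.06. On the lower side Dmrta1 and Art5 were at least 22-fold and 12-fold lower. The bounds of Tgm6, Cd40, Kynu, Foxd3 and Misp, and the Cd93 difference of -3.21, came from bright-area spots of the P2 array.

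The other pair of subsets that differs in both markers, P3 minus P1, shares no array with P4 minus P2 and was read for the same genes. Class II and type 2 dendritic cell markers had a summed level of 362 in P3 and 114 in P1. Macrophage and monocyte markers summed to 80.2 and 54.6, and erythroid markers to 8.58 and 0.223. Sums of plasmacytoid dendritic cell, innate lymphoid, platelet and stromal markers were lower in P3. The part of other cell types in P3 levels was not tested. Of 12856 genes measured in both pairs, 10.8% were 2-fold or more higher in P3 than in P1 and 6.48% lower by as much. Among the 636 genes higher in P4 than in P2, 595 were measured, and 385 of them (64.7%) were also higher in P3 than in P1, with 77 (12.9%) lower and a median of 1.94. In both pairs the first subset is the CD62Llow one, while CD44 is low in P4 and high in P3. Among the 451 genes lower in P4 than in P2, 378 were measured; 149 (39.4%) were higher in P3 than in P1, 43 (11.4%) lower and 186 within 2-fold. Over genes above background on all 4 arrays the shares higher in P3 were 54.6% of 368 and 33.8% of 275, against 7.79% of all 11836. Gzma, Gzmk and Lag3 differed between P3 and P1 by 7.53, 8.17 (a bound) and 7.34 (a bound). Klra4 and Klra7 differed by 5.09 (a bound) and 5.87, so the genes lowest in P4 against P2 were nevertheless higher in P3 than in P1. Ccr9, which was higher in P4 than in P2, was lower in P3 than in P1, by -2.43. Of the 24 memory genes 17 were higher in P3 than in P1 and 0 lower, and of the 21 coinhibitory genes 13 and 1.

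**Figure D5:**
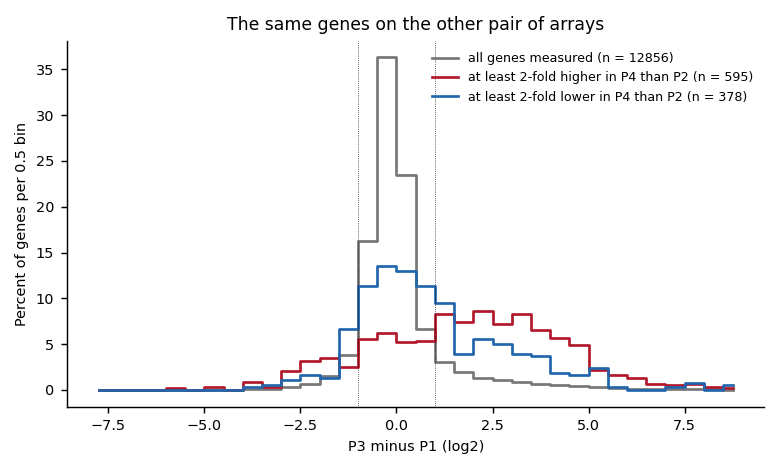
Distribution of the P3 minus P1 difference (log2, horizontal axis, bins of 0.5, percent of genes on the vertical axis) for all 12856 measured genes (grey) and for those 2-fold or more higher (red, n = 595) or lower (blue, n = 378) in P4 than in P2. The red line is shifted to the right, with 64.7% at 1 or more, and the blue line has 39.4% there.

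Genes apart between P4 and P2 were also looked up by their order along chromosomes. After a gene that was higher in P4, the next measured gene was also higher in 55 of 636 cases (8.65%, against 4.85% of all genes), and after a lower gene the next was lower in 48 of 451 (10.6%, against 3.44%). Runs of at least 3 adjacent genes numbered 7 higher and 3 lower. Long noncoding RNA genes were more often lower than higher in P4, in part through bright-area spots. Of 616 such genes 17 (2.76%) were higher and 37 (6.01%) lower, with 1 and 16 of these in bright areas. Of 12343 protein-coding genes 615 (4.98%) were higher and 407 (3.30%) lower, with 45 and 65 in bright areas.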

How the data were processed

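Total RNA of the sorted subsets was labelled with 1 dye (Cy3) for 1-colour arrays, per the labels' protocols. Per the submitters' processing notes and the file headers, the authors extracted spot intensity with Agilent Feature Extraction 11.0.1.1; its processed signal was used as deposited. The authors' deposited log2 value table, for which the sources used here give no method, served as an alternative. Intensities were scaled to the 75th percentile of non-control spots per array after outlier spots were dropped, and repeated spots were averaged. A RefSeq accession named 32994 of 56605 probes (58.3%) through a GRCm38.p6 gene table, and a gene took its probe with the highest mean over the 4 arrays. A locally bright area was called around a spot when the number of its neighbours (within 32 position units) raised at least 2-fold over every other array was one that under 1% of spots would reach at that array's overall rate. Differences were counted by size alone, and p-values were not computed. The normexp alternative used median signals (offset 50, limma 3.58.1, R 4.3.3), because a mean signal column was not among the values used here. Counting was tested on simulated data. Python 3.11.15, pandas 2.3.3 and scipy 1.17.1 were used.

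Genes named were the 15 largest differences measured on both arrays and the 8 largest bounds in each direction, the sort and lineage markers, and up to 6 members per list and direction at least 2-fold apart, with others that give a list's range or a known reference gene. Genes whose probes differ in sign and clone names were left out of the first 2 parts. The comparison, members and lists were chosen with earlier results of these data known. Some genes that the rule names are not reported here.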

Additional observations from a re-analysis of the deposited data

How the results depend on the processing

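The counts of genes at least 2-fold higher and lower in P4 than in P2 (636 and 451) stayed within 1.5 times under scaling to equal medians of commonly detected probes, quantile normalization, the filter on both arrays, the mean over probes, outlier spots kept, and bright areas left out. Without filter and floor they were 1188 and 1074. Normexp gave 334 and 229, the authors' processed values gave 382 and 275, and a 4-fold threshold gave 192 and 136. The split of calls stayed between 52.5% and 61.7% higher. Of the 636 and 451 genes, normexp kept 332 and 225.

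The share of the higher genes that was also above P1 by 2-fold or more in P3 (64.7%) was 59.6% over genes above background on both arrays, 51.1% with no filter and no floor, 54.7% in the authors' processed values, 76.9% for genes at least 4-fold higher in P4, and 54.6% over genes above background on all 4 arrays. For the lower genes the share (39.4%) was 24.3% with no filter and no floor, 53.2% at 4-fold, and 33.8% over genes above background on all 4 arrays. For these results the cause was not tested, except that fewer or more genes entered.

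Among 1431 values of 169 named genes under these settings, 38 fell under 2-fold and 1 reversed, Tnfrsf21 at -0.35 in the authors' processed values. List medians reversed in 4 of 409 cases. Innate lymphoid cell genes stood at -0.70 over genes above background on both arrays, -0.16 with no filter and no floor and -0.62 in the authors' processed values, and plasma cell genes at -0.023 with no filter and no floor. No paired analysis was possible because each subset has 1 array. Dim signals limit 353 of the 1087 calls to bounds, and 1 array a side leaves biological spread unmeasured.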

Other observations

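The genes below that are in no list were chosen after their values were seen. Casp1 and Casp4, inflammatory caspase genes, were both higher in P4. Casp1 stood at 2.65 in P4 and -0.14 in P2, against -0.38 in P1 and 3.84 in P3, and Casp4 at 1.43, -0.81, -1.12 and 3.06 in the same order, differences of 2.79 and 2.24 between P4 and P2. Ctla2a and Ctla2b, genes of cathepsin inhibitors with near-identical sequences, were lower in P4 by 1.92 and 2.03 on the log2 scale and were highest in P2.

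Ifngas1, a noncoding RNA gene next to Ifng, stood at -0.62 in P4 and 1.87 in P2, against -1.63 in P1 and 0.79 in P3, a P4 minus P2 difference of -2.49. Ifng itself differed by 0.44. Hopxos, an antisense gene at Hopx, differed by -1.93 and Hopx by -1.36. Plaur, the urokinase receptor gene, was higher in P4 by 2.94, at 0.46 in P4 and -2.49 in P2, against 1.13 in P1 and -1.50 in P3, so that P2 was the lowest array. Selenbp1 was higher by 3.07 and likewise had its lowest value, -3.52, in P2.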
